A study of Mus musculus with 20 samples.

Results

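The loci of 5 mouse basement membrane genes, the laminin chain genes Lama1, Lamb1 and Lamc1 and the collagen IV chain genes Col4a1 and Col4a2, were chosen by position. A peak was a member when its midpoint lay in 1 of 4 windows of the mm9 genome: chr17:68000000-68220000 for Lama1, chr12:31900000-32070000 for Lamb1, chr1:155010000-155230000 for Lamc1, and chr8:11150000-11500000 for Col4a1 and Col4a2 together. These windows span 960 kb and held 968 of the 765133 peaks in 18 deposited peak lists. The study mapped Sox2, Sox17 and Oct4 (Pou5f1) by chromatin immunoprecipitation and sequencing (ChIP-seq) in KH2 embryonic stem (ES) cells and in F9 cells, an embryonic carcinoma line. F9 cells were examined undifferentiated with an Oct4 antibody (Oct4 F9) and after 1 µM retinoic acid (RA), which the labels say differentiates them into primitive endoderm, with an Oct4 antibody (Oct4 F9+RA) or a Sox17 antibody (Sox17 F9+RA), as 1 library each. KH2 ES cells, an undifferentiated line grown with LIF, overexpressed 1 of 4 V5-tagged proteins under 1 µg/ml doxycycline: Sox2, Sox2KE, Sox17EK or Sox17, where KE and EK mark an exchange of lysine (K) and glutamate (E). Each protein was immunoprecipitated in replicates A and B, through the V5 tag for Sox2, Sox2KE and Sox17EK, while the Sox17 libraries name a Sox17 antibody beside V5. Oct4 was mapped in the same lines in replicates A and B, except for the Sox17 line with A only, and these labels name V5 beside the Oct4 antibody. Every ES line thus carried an induced tagged Sox protein, no library of uninduced cells was used, and 2 mock immunoprecipitations were not analysed here.

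Basement membranes are thin sheets of extracellular matrix under epithelia. Laminins are heterotrimers of an alpha, a beta and a gamma chain that polymerise at the cell surface, and collagen IV chains form a covalent network linked to the laminin layer. The parietal descendants of primitive endoderm secrete large amounts of both, and F9 cells treated with retinoic acid are a classical model in which these genes are induced. Lama1 encodes the laminin alpha-1 chain, Lamb1 the beta-1 chain and Lamc1 the gamma-1 chain, the subunits of laminin-111. Col4a1 and Col4a2 encode the alpha-1 and alpha-2 chains of collagen IV. Expression was not measured, so neither the induction of these genes nor the labelled cell types could be checked here.

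The 2 collagen genes share 1 window because they leave a common start region in opposite directions. Their promoters in the RefSeq table for GRCm38.p6, from 250 bases before to 50 after each start, are printed to show this. Col4a1 lies on the minus strand at chr8:11312777-11313076, Col4a2 on the plus strand at chr8:11312555-11312854, and the capitals mark the 78 bases that both hold, read from opposite strands.
Col4a1: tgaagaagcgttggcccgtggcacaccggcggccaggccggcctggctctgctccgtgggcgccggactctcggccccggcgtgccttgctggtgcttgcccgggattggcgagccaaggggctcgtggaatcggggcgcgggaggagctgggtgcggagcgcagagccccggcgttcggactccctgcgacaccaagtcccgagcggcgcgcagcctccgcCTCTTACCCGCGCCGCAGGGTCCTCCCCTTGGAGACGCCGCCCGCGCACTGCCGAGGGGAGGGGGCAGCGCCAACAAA
Col4a2: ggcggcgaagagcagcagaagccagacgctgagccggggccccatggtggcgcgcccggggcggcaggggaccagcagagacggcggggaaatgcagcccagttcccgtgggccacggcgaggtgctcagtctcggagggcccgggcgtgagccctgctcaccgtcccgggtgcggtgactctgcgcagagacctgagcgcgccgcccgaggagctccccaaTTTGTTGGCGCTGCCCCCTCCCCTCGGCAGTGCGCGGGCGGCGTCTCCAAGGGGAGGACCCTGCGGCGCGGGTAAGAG
Both are rich in G and C (74% and 73.7%), and a peak near this shared region cannot be assigned to 1 of the 2 genes. GRCm38.p6 is not the build of the peak lists, so the printed sequences have not been placed on the peaks. The table held promoters for 3 of the 5 members, the other one being Lamb1. None of the 3 contained, on either strand, the canonical Sox2-Oct4 composite motif in its usual spacing (found in 0.0609% of the 32851 promoters in the table), its compressed form, which lacks 1 base between the Sox and Oct parts (0.0183%), the octamer ATGCAAAT (1.74%) or the Sox core ACAAT (31.0%). These letters were searched in the promoter table alone. No mm9 annotation was used here, so peaks are given by position and not as exonic, intronic or promoter peaks. A window may include part of a neighbouring gene.

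Each peak carries the authors' score, with a minimum of 50 to 50.03 in every list, and in many lists several peaks tie at 3100. Rank 1 is the highest score in a library, peaks of equal score share the best rank, and a rank percentage is the rank divided by the list length. The lists differed in length from 5836 peaks (Sox17 ES B) to 84196 (Oct4 F9+RA), and replicates of 1 protein differed too, with 33123 and 71693 peaks for Sox2KE. Read depth is unknown, counts are therefore also given as a share of each list, and exact binomial intervals (Clopper-Pearson, 95%) cover counting error only.

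After retinoic acid, Oct4 peaks were denser at Lama1, Lamb1 and the collagen IV genes, while their number at Lamc1 differed little. Sox17 F9+RA peaks were dense at the same 3 windows, 8.91 to 11.2 times the genome-wide density, against 2.41 times at Lamc1. This contrast depends on the scale: over its own chromosome, Lamc1 stood at 5.86 times for Sox17 F9+RA and Lamb1 at 4.36. Oct4 had 45 peaks in the 4 windows in untreated F9 cells, 0.0697% of its list (interval 0.0508 to 0.0932). It had 160 after retinoic acid, 0.190% (0.162 to 0.222), and Sox17 had 117, 0.294% (0.243 to 0.352). The windows held 1.92 times the genome-wide peak density in Oct4 F9, 5.22 times in Oct4 F9+RA and 8.09 times in Sox17 F9+RA. With 1 library per condition, these differences have no replicate check and no test.

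At Lama1, Oct4 had 11 peaks before and 47 after retinoic acid, a ratio of 4.27, and Sox17 had 37. At Lamb1 the Oct4 counts were 6 and 31, a ratio of 5.17, with 25 Sox17 peaks. At Col4a1 and Col4a2 they were 15 and 66, a ratio of 4.40, with 47 Sox17 peaks. These 3 ratios exceed that of the whole lists, since the Oct4 F9+RA list was 1.3 times as long as the Oct4 F9 list, and also those of their chromosomes, which were 1.26 for chromosome 17, 1.74 for chromosome 12 and 1.38 for chromosome 8. Among genome tiles as long as each window, a gain of at least as many Oct4 peaks was found in 0.242% of tiles for Lama1 (29 of 11982), 0.329% for Lamb1 (51 of 15510) and 0.332% for the collagen window (25 of 7529). At Lamc1 the counts were 13 and 16, with 8 Sox17 peaks. The Oct4 ratio of 1.23 falls just under that of the list and above the 1.16 of chromosome 1, and 24.8% of tiles gained at least 3 peaks. Among the 39768 strongest peaks of each F9 list, the length of the Sox17 F9+RA list, Oct4 counts before and after were 5 and 14 at Lama1, 2 and 13 at Lamb1, 6 and 7 at Lamc1, and 11 and 32 at the collagen window.

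**Figure D1:**
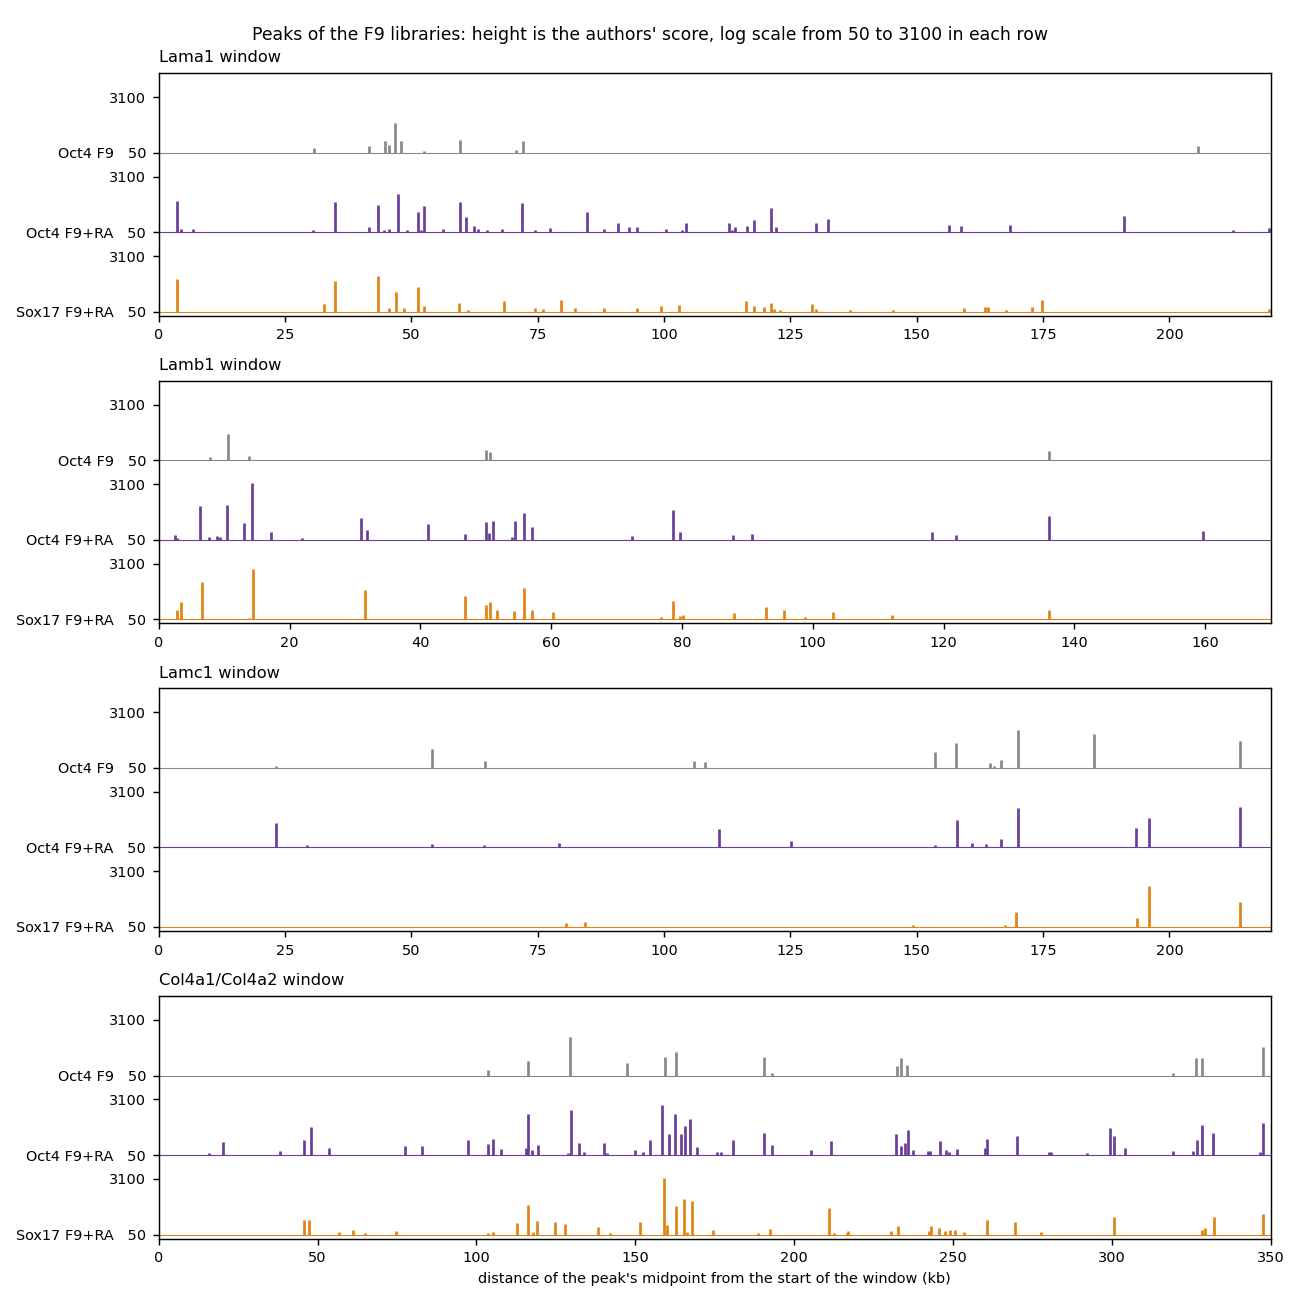
Peaks of the 3 F9 libraries along the 4 windows, by distance of the midpoint from the window start in kb; the height of each line is the authors' score on a log scale from 50 to 3100. Oct4 F9+RA and Sox17 F9+RA lines fill the Lama1, Lamb1 and collagen windows, where Oct4 F9 has 11, 6 and 15 peaks, while at Lamc1 the 3 libraries have 13, 16 and 8.

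Most of these peaks were weak. Scores under 100 made up 94 of the 160 Oct4 F9+RA peaks (58.8%, beside 52.7% of the whole list) and 79 of the 117 Sox17 F9+RA peaks (67.5%, beside 76.1%). The strongest 10% of each list held 18 of the Oct4 F9+RA peaks (11.25%) and 22 of the Sox17 F9+RA peaks (18.8%). For Oct4 F9 it held 3 of 45 peaks (6.67%). Over a whole list this share is 10% by definition, and both Oct4 shares were near it.

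The Oct4 peaks seen after retinoic acid were mostly at places without an Oct4 peak in untreated cells. Of the 160 peaks, 119 overlapped no Oct4 F9 peak by even 1 bp, 74.4% (66.9 to 80.9), where the share over the whole list was 42.7%. With 45 Oct4 F9 peaks in the windows, most of the 160 had to lack a partner unless single peaks met several. This share thus largely restates the gain in peak number. The counts were 39 of 47 at Lama1, 24 of 31 at Lamb1, 8 of 16 at Lamc1 and 48 of 66 at the collagen window, and at Lamc1 the interval, 24.7 to 75.3%, includes the share of the whole list. In the other direction, 8 of the 45 Oct4 F9 peaks had no Oct4 F9+RA peak, 17.8% (8.0 to 32.1) beside 31.7% of the list. None of the 6 at Lamb1 and 1 of the 15 at the collagen window were among these. Of the 41 Oct4 F9+RA peaks that did meet an Oct4 F9 peak, 31 stood higher in the treated list by rank percentage, 75.6% beside 54.6% of the list, and at the collagen window 16 of 18 did.

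Oct4 and Sox17 peaks met at these loci after retinoic acid, and how this compares with the lists depends on the side from which it is counted. Of the 117 Sox17 F9+RA peaks, 63 overlapped an Oct4 F9+RA peak, 53.8% (44.4 to 63.1), near the 53.1% of all Sox17 F9+RA peaks. Of the 160 Oct4 F9+RA peaks, 63 overlapped a Sox17 peak, 39.4% (31.8 to 47.4), beside 24% of the list, with 17 of 47 at Lama1, 17 of 31 at Lamb1, 4 of 16 at Lamc1 and 25 of 66 at the collagen window. Among the 119 Oct4 peaks without an Oct4 F9 peak, 42 had a Sox17 peak, 35.3% beside 15.3% of such peaks over the list. Those with an Oct4 F9 peak had one in 21 of 41 cases, 51.2% (35.1 to 67.1) beside 30.5%, so both kinds exceeded their list share. An Oct4 F9 peak lay under 22 of the 117 Sox17 F9+RA peaks, 18.8% (12.2 to 27.1), beside 43% of the Sox17 list. The last share was below that of the list in each window, from 5 of 37 at Lama1 to 2 of 8 at Lamc1, where the interval includes the list's share. Counted from the Oct4 F9 side the direction was opposite. There 19 of 45 peaks had a Sox17 F9+RA peak, 42.2% (27.7 to 57.8), beside 23.5% of the Oct4 F9 list. The windows held fewer Oct4 F9 peaks (45) than Sox17 F9+RA peaks (117). Over the whole lists the order was reversed, with 64582 and 39768 peaks. These numbers alone bear on both shares, so neither is read as more or less overlap.

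**Figure D2:**
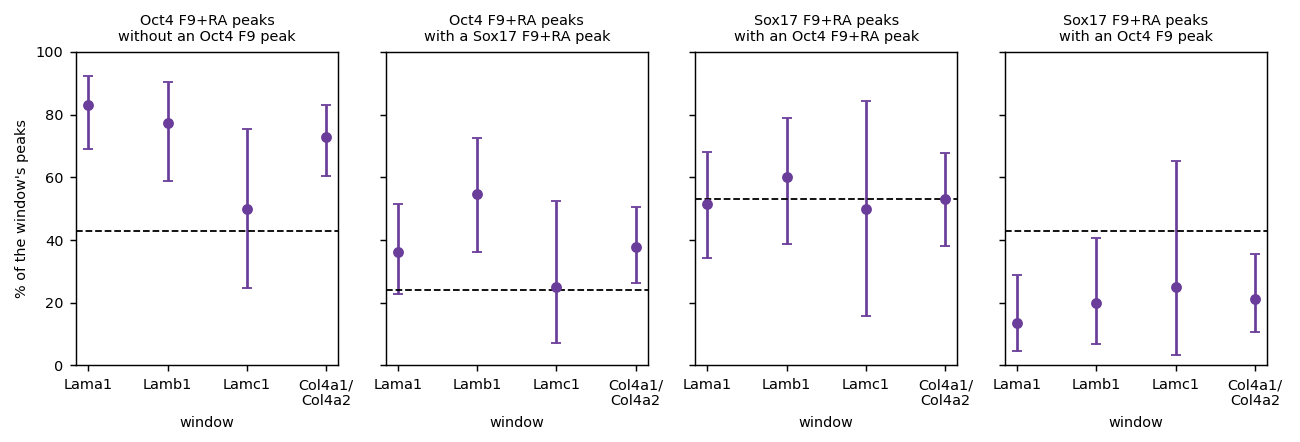
Overlap of F9 peaks in each window, in percent of the window's peaks with exact 95% intervals; the dashed lines mark the share over the whole list. The share of Oct4 F9+RA peaks without an Oct4 F9 peak lies above its line of 42.7% at Lama1, Lamb1 and the collagen window, and the share of Sox17 F9+RA peaks with an Oct4 F9+RA peak lies close to its line of 53.1%.

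By share of the list, ES libraries lay under both F9+RA libraries at Lama1, Lamb1 and the collagen window and above them at Lamc1, but at the collagen window Sox17 ES A, with 0.0777%, was close to Oct4 F9+RA, with 0.0784%. Across the 8 Sox libraries the 4 windows held 10 to 106 peaks, and across the 7 Oct4 libraries 28 to 75. At Lamc1, ES libraries gave 0.0335% to 0.0685% of their lists, above the 0.0201%, 0.0190% and 0.0201% of Oct4 F9, Oct4 F9+RA and Sox17 F9+RA. Relative to the peak density of chromosome 1 in the same library, however, the Lamc1 window stood at 3.69 to 5.91 times in the ES libraries and at 4.15, 4.42 and 5.86 times in the F9 libraries, so on that scale the ranges overlap. At Lama1 the density relative to chromosome 17 was 0.71 to 3.55 times in ES libraries, 1.56 times in Oct4 F9, 5.30 times in Oct4 F9+RA and 8.97 times in Sox17 F9+RA. At the collagen window the corresponding values over chromosome 8 were 1.23 to 3.32, 1.65, 5.27 and 8.44. At Lamb1 the order depended on the scale. The Sox2KE line libraries gave 0.0237% to 0.0274% of their lists, under the 0.0368% of Oct4 F9+RA and the 0.0629% of Sox17 F9+RA. Over chromosome 12, however, Sox2KE stood at 5.04 and 4.39 times and Oct4 in its line at 4.41 and 5.21 times, beside 3.22 times for Oct4 F9+RA and 4.36 times for Sox17 F9+RA, and the other ES libraries lay between 0 and 2.73 times. The chromosome 12 scale itself differed between libraries. It held 5.66 peaks per 100 kb in Oct4 F9+RA and 3.38 in Sox17 F9+RA, above their genome-wide 3.19 and 1.51. In Sox2KE A and B it held 1.05 and 2.28, below their genome-wide 1.26 and 2.72. Over the genome, Lamb1 stood at 5.71 and 9.76 times in Oct4 and Sox17 F9+RA, and at 4.22 and 3.68 times in Sox2KE. Cell line, treatment and antibody differ together between the ES and F9 libraries and cannot be told apart.

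**Figure D3:**
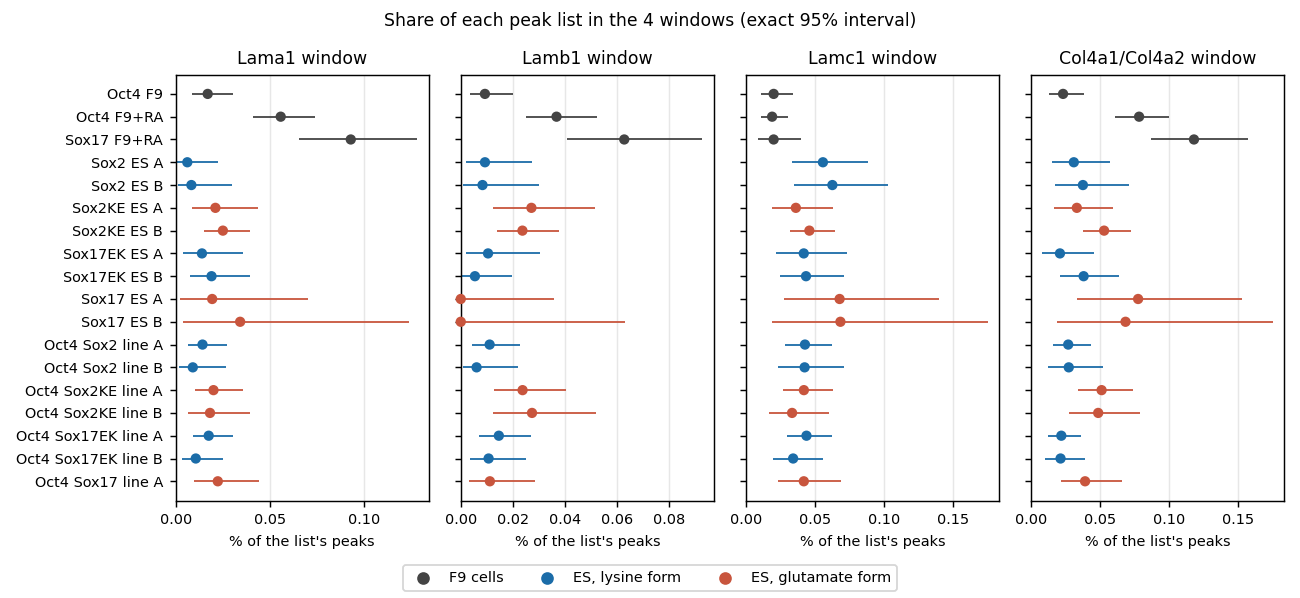
Percent of each library's listed peaks whose midpoint lies in each window, with exact 95% intervals; grey marks F9 libraries, blue ES libraries with a lysine form (Sox2 or Sox17EK) and red those with a glutamate form (Sox2KE or Sox17). Oct4 F9+RA and Sox17 F9+RA lie to the right at Lama1, Lamb1 and the collagen window, where Sox17 ES A is close to Oct4 F9+RA, but not at Lamc1, where every ES library lies above the F9 libraries.

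The ES lines allow a comparison of the residue: Sox2 and Sox17EK hold the lysine, Sox2KE and Sox17 the glutamate. The 4 windows took 0.102% and 0.117% of the 2 Sox2 lists and 0.0874% and 0.106% of the Sox17EK lists. They took 0.118% and 0.148% of the Sox2KE lists and 0.165% and 0.171% of the Sox17 lists. Every glutamate library lay above every lysine library, with Sox2KE A, at 0.118%, barely above Sox2 B, at 0.117%. How often comparable sets of genome tiles show this order was not counted, for Sox or for Oct4 libraries. The means were 0.103% ± 0.0123 (SD, n = 4) for lysine and 0.150% ± 0.0240 (SD, n = 4) for glutamate, a ratio of 1.46. The exact two-sided permutation test gave p = 0.0286, the smallest that 70 regroupings allow, and 0.0571 after Benjamini-Hochberg adjustment over the 2 tests made.

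The Oct4 libraries of the same lines showed the same order by residue, but not by protein. Among them the Sox17 line lay under the Sox2KE line, whereas Sox17 itself lay above Sox2KE. Their labels name V5 too, so how far they are separate from the Sox libraries is unclear. The Sox2 line gave 0.0952% and 0.0852%, the Sox17EK line 0.0981% and 0.0771%, the Sox2KE line 0.137% and 0.128%, and the single Sox17 line library 0.115%. The means were 0.0889% ± 0.00963 (SD, n = 4) with lysine and 0.127% ± 0.0112 (SD, n = 3) with glutamate, a ratio of 1.42, and p was 0.0571 in the exact permutation test (two-sided), the lowest that these numbers allow, with the same adjusted value. Neither difference passed 0.05 after adjustment. Replicates were not stated to be separate cultures, so both p-values reflect only how these libraries vary among themselves. The Sox17 libraries had the shortest lists, and without them the lysine minus Sox2KE difference was -0.0295 percentage points (exact permutation p = 0.133, the smallest possible). Without the collagen window the lysine minus glutamate differences were -0.0211 points for Sox (exact permutation p = 0.0286) and -0.0158 for Oct4 (p = 0.114).

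**Figure D4:**
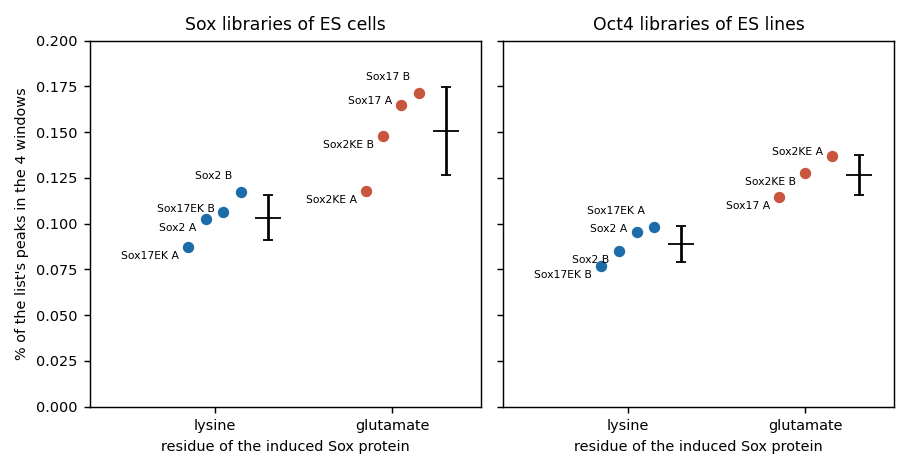
Percent of each library's listed peaks in the 4 windows, for Sox libraries (left) and Oct4 libraries (right) of ES lines, grouped by the residue of the induced Sox protein; points are libraries and the black marks are the mean ± SD. All glutamate points lie above all lysine points in both panels, with Sox2KE A at 0.118% next to Sox2 B at 0.117%.

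By window the order held in some places only. At Lama1 the glutamate Sox libraries, 0.0194% to 0.0343%, lay above the lysine ones, 0.0062% to 0.0191%, as they did in 1.58% of genome tiles of that length. Lama1 also had the glutamate lines above for Oct4, 0.0183% to 0.0224% against 0.0091% to 0.0176%, an order found in 3.25% of tiles. At the collagen window this order held for Oct4, 0.0392% to 0.0512% against 0.0214% to 0.0274% (3.42% of tiles), but the Sox libraries overlapped, 0.0332% to 0.0777% against 0.0210% to 0.0381%. At Lamc1 both sets overlapped. At Lamb1 the Oct4 sets and the Sox sets overlapped, and the 2 glutamate proteins were far apart: Sox2KE had 9 and 17 peaks, 0.0272% and 0.0237%, whereas Sox17 had 0 in both lists. A count of 0 allows up to 3 peaks, 0.0291% of the Sox17 A list and 0.0514% of the Sox17 B list. Taken alone, neither list therefore excludes a share like that of Sox2KE. The 2 lists were not tested together.

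Merging overlapping peaks of all lists gave 274 sites: 75 at Lama1, 44 at Lamb1, 57 at Lamc1 and 98 at the collagen window. Of these, 139 were seen in 1 library only, among them 56 in Oct4 F9+RA and 39 in Sox17 F9+RA. F9+RA libraries alone held 113 sites, 43 at Lama1, 21 at Lamb1, 4 at Lamc1 and 45 at the collagen window. Peaks were merged inside the windows only, so no share over the genome stands beside the site counts given here. At least 10 libraries shared 23 sites, 10 of them at Lamc1, and 2 sites had a peak in all 18 libraries. Both Sox2KE replicates had a peak at 35 sites, both Sox2 replicates at 20, both Sox17EK replicates at 12 and both Sox17 replicates at 7. Both Sox2KE replicates met at 13 sites without any lysine Sox peak, 6 of them at Lamb1. The lists behind these replicate counts held 33123 and 71693 peaks for Sox2KE but 10301 and 5836 for Sox17. Sites below carry their number along the window. Merging chained neighbouring peaks, so the widest sites hold several peaks.

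**Figure D5:**
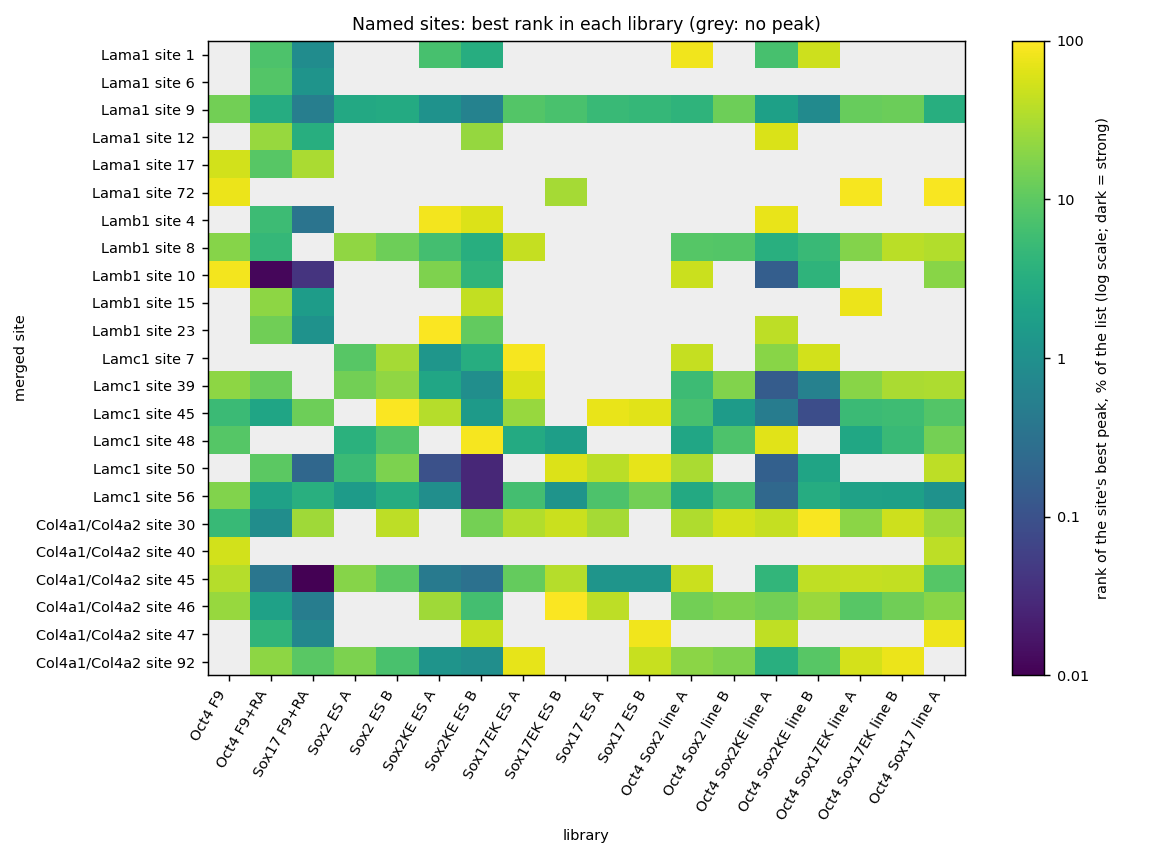
Rank percentage of the best peak of each library (columns) at the sites named by rule (rows), on a log colour scale where dark means near the top of the list and grey means no peak. Lama1 site 9 and Lamc1 site 56 are filled in all 18 libraries, Lamb1 site 10 is darkest in the F9+RA libraries, and Col4a1/Col4a2 site 45 is darkest in Sox17 F9+RA.

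At Lama1, 1 site was shared by all libraries and several stood in the F9+RA libraries with few others. Site 9, chr17:68043000-68048746, has a left and a right part along the coordinates. In the left part, near chr17:68043108-68043616, Sox17 F9+RA scored 624 (rank 205) and Oct4 F9+RA 336 (rank 10389), while Oct4 F9, the exception among the 18 libraries, had no peak. Sox peaks there scored 678 and 595 for Sox2, 897 and 1846 for Sox2KE, 385 and 200 for Sox17EK, and 197 and 238 for Sox17. In the right part Oct4 F9 scored 391 (rank 9203) at chr17:68046036-68047539 and Oct4 F9+RA 742 (rank 2555) at chr17:68046046-68048697. Site 1, chr17:68002818-68004118, was the strongest at this locus with both F9+RA peaks and no Oct4 F9 peak. Sox17 F9+RA scored 496 (rank 351, 0.883% of the list), Oct4 F9+RA 457 (rank 6435, 7.64%), Sox2KE 414 and 1069, and Oct4 in the Sox2KE line 618 and 129, and the only other peak was an Oct4 peak of 71.8 in the Sox2 line. Site 6, chr17:68034373-68035321, was seen in Oct4 F9+RA (427, rank 7225) and Sox17 F9+RA (441, rank 473) and in no other library. At site 12, chr17:68050911-68051756, Sox17 F9+RA scored 280, Oct4 F9+RA 196 and Sox2KE B 304. At site 17, chr17:68058889-68060194, the Oct4 score was 110 in F9 and 413 in F9+RA, and the Sox17 score was 86.1. Site 72, chr17:68205250-68205818, was the best site with an Oct4 F9 peak (71.6) and none in Oct4 F9+RA.

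At Lamb1 the leading site was strong in both F9+RA libraries and weak in untreated cells. Site 10, chr12:31913593-31915057, scored 3100 in Oct4 F9+RA (rank 10 of 84196) and 1817 in Sox17 F9+RA (rank 16 of 39768), but 59.9 in Oct4 F9 (rank 55870 of 64582). In ES cells Sox2KE scored 238 and 946 there and Oct4 in the Sox2KE line 2638 (rank 85) and 762, while Oct4 scored 243 in the Sox17 line and 175 in replicate A of the Sox2 line. No Sox2, Sox17EK or Sox17 ES library had a peak there. Site 4, chr12:31905798-31906950, had Oct4 F9+RA at 553 (rank 4585), Sox17 F9+RA at 736 (rank 140) and no Oct4 F9 peak, and its ES peaks were weak, 58.1 and 94.5 for Sox2KE and 73.2 for Oct4 in Sox2KE line A. Site 23, chr12:31955307-31956196, repeated this set of libraries: Sox17 F9+RA 461, Oct4 F9+RA 318, Sox2KE 52.8 and 546, and Oct4 in Sox2KE line A 157. Site 15, chr12:31930506-31932103, held a Sox17 F9+RA peak of 380 (rank 644), Oct4 F9+RA peaks of 219 and 95.4, a Sox2KE B peak of 157 and an Oct4 peak of 80.1 in Sox17EK line A. Site 8, chr12:31909881-31910957, differed: 14 libraries had a peak, including all 7 Oct4 ES libraries, Sox2 (186 and 270) and Sox2KE (432 and 1065), with Oct4 F9 at 322 and Oct4 F9+RA at 602, but Sox17 had no peak there in F9+RA or ES cells.

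At Lamc1 the strongest sites belonged to ES libraries and most had an Oct4 peak in F9 cells as well. Site 56, chr1:155223274-155224592, was called in all 18 libraries. It scored 339 in Oct4 F9, 909 in Oct4 F9+RA and 278 in Sox17 F9+RA, and in ES cells 826 and 581 for Sox2, 998 and 3100 for Sox2KE, 477 and 517 for Sox17EK, and 244 and 146 for Sox17. Site 50, chr1:155205089-155206566, was the strongest at this locus with both F9+RA peaks (Sox17 952, rank 85, and Oct4 395, rank 8148) and no Oct4 F9 peak. Sox2KE scored 1945 (rank 33) and 3100 (rank 20, shared by all its peaks of that score) there, beside 474 and 232 for Sox2, 97.7 and 59.6 for Sox17, 70.9 for Sox17EK B and no peak for Sox17EK A. Oct4 in the Sox2KE line scored 2561 and 942, and no Oct4 peak was called in either Sox17EK line library. Site 48, chr1:155194673-155196033, had an Oct4 F9 peak and no F9+RA peak. Oct4 scored 546 in F9 (rank 5661), Sox2 scored 593 and 359, Sox17EK 788 and 442, Sox2KE 58.5 in replicate B alone, and neither Sox17 library had a peak. Oct4 there reached 2268 and 756 in Sox17EK cells and 2222 and 390 in Sox2 cells, against 84.7 in Sox2KE line A, no peak in Sox2KE line B and 295 in the Sox17 line. Site 45, chr1:155178766-155181482, was an Oct4 site in every Oct4 library, with 749 in F9, 848 in F9+RA and 425 to 2285 in ES lines, and the Sox17 F9+RA score was 139. Site 39, chr1:155166757-155170093, had Oct4 at 288 in F9 and 336 in F9+RA and no Sox17 F9+RA peak, with its highest score, 2695, in Oct4 Sox2KE line A. Site 7, chr1:155043141-155045840, had no F9 peak and its highest scores in Sox2KE, 901 and 1086.

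In the collagen window a cluster of neighbouring sites carried the strongest Sox17 peaks. Site 45, chr8:11306914-11311000, held the peak ranked 4 of 39768 in Sox17 F9+RA, with a score of 2890 at chr8:11308328-11309649. Oct4 F9+RA scored 1795 (rank 309) at chr8:11306915-11309949 and Oct4 F9 177 (rank 22872) at chr8:11308336-11310300. All 8 ES Sox libraries had a peak there: 602 (rank 126 of 10301) and 520 (rank 72 of 5836) for Sox17, 1236 (rank 144) and 2446 (rank 222) for Sox2KE, 213 and 321 for Sox2, and 312 and 88.7 for Sox17EK. By rank percentage, each glutamate library, 0.31% to 1.23%, stood above each lysine library, 9.99% to 36.0%. Site 45 was named for its rank and its replicate peaks, and how often other sites show this order was not counted. Site 46, chr8:11311079-11316534, contained several peaks. One of them, called at chr8:11311882-11313883 in Sox17 F9+RA (361) and at chr8:11311831-11313334 in Oct4 F9+RA (899), also had an Oct4 peak of 257 in F9. A further one, at chr8:11314553-11315948 in Sox17 F9+RA (635, rank 197) and chr8:11315161-11316216 in Oct4 F9+RA (377), had no Oct4 F9 peak, and its ES peaks came from Sox2KE (166 and 752), Oct4 in the Sox2KE line (405 and 161) and Sox17 A (88.3). Site 47, chr8:11316844-11318558, scored 641 in Oct4 F9+RA (rank 3443) and 542 in Sox17 F9+RA (rank 282) with no Oct4 F9 peak, and its ES scores lay between 54.8 and 149. Site 30, chr8:11277718-11280309, was mainly an Oct4 site, with 792 in F9 (rank 3145) and 1277 in F9+RA (rank 765). Its Sox17 F9+RA peak of 94.4, at chr8:11277718-11278259, overlapped neither of these Oct4 peaks. Site 92, chr8:11481444-11482957, had no Oct4 F9 peak, F9+RA scores of 221 (Oct4, 20.9% of the list by rank) and 167 (Sox17, 9.31%), and its highest scores in Sox2KE, 919 and 1731. Site 40, chr8:11296923-11297748, had Oct4 F9 at 112 and no F9+RA peak.

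The ES Sox lists did not meet the Sox17 F9+RA peaks of these loci more often than elsewhere. A peak of at least 1 of the 8 ES Sox libraries overlapped 53 of the 117 Sox17 F9+RA peaks, 45.3% (36.1 to 54.8), near the 46.3% of the whole list. By window the counts were 10 of 37 at Lama1, 13 of 25 at Lamb1, 6 of 8 at Lamc1 and 24 of 47 at the collagen window, and the Lama1 share, 27.0% (13.8 to 44.1), was under that of the list. The longest list, Sox2KE B, met 49 of the 117, 41.9% beside 42% of all Sox17 F9+RA peaks, and Sox2KE A met 19, 16.2% beside 20.2%. Sox2 A and B met 11 each, 9.40% beside 13.3% and 11.8%, Sox17EK A and B met 9 and 11, 7.69% and 9.40% beside 15% and 10.6%, and ES Sox17 A and B met 12 and 10, 10.3% and 8.55% beside 14.2% and 6.83%. The intervals of these ES Sox shares include the share of the list in all but Sox17EK A, whose interval, 3.58 to 14.1%, lies under it. For the Oct4 ES libraries the share was lower in the windows than over the list in each of the 7. Oct4 Sox2 line A and B met 22.2% and 10.3% of the 117 peaks beside 38.2% and 25.5% of the list, and the Sox2KE line 26.5% and 20.5% beside 37.6% and 31.5%. The Sox17EK line met 18.8% and 12.0% beside 39.6% and 31.6%, and the Sox17 line 16.2% beside 29.3%. The 7 Oct4 ES libraries held 28 to 75 peaks in the windows and Sox17EK A held 25, against 117 for Sox17 F9+RA. Such counts limit how many of the 117 could be met.

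Within ES cells, most Sox peaks at these loci had an Oct4 peak of the same line, in shares near those of the whole lists. The counts were 28 of 33 and 25 of 28 for Sox2 (84.8% and 89.3%, beside 83.4% and 91.3% of the lists), and 34 of 39 and 61 of 106 for Sox2KE (87.2% and 57.5%, beside 78.5% and 60.3%). They were 21 of 25 and 19 of 39 for Sox17EK (84.0% and 48.7%, beside 89.1% and 48.2%), and 13 of 17 and 9 of 10 for Sox17 (76.5% and 90.0%, beside 87.1% and 80.3%). In all 8 libraries the interval included the share of the list. Because the Oct4 labels name V5 too, binding of Oct4 and of the tagged Sox protein cannot be told apart in this overlap.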

How the data were processed

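Oct4, Sox2 and Sox17 binding was measured by ChIP-seq in 18 libraries, and each deposited list gives the authors' peak positions and 1 score per peak. The build is mm9, per the submitters' processing notes. The peak names carry the caller name MACS, per the deposited files. The sources used here do not give the aligner, caller settings, control or the score's scale, and lists were deposited per library, not pooled. Read depth is unknown, so list length limits the precision. Positions were written 1-based, peaks assigned to windows by midpoint, overlaps required 1 bp, and peaks were merged by single linkage. Sites named per window were the 5 with the lowest rank percentage in any library and the strongest with both F9+RA peaks but no Oct4 F9 peak, with Oct4 lost after RA, with both replicates of an ES Sox protein, and with most libraries. ES libraries were grouped by the label's residue and tested on the percentage of each list with an exact permutation test (two-sided), Benjamini-Hochberg adjusted over 2 tests. The members and lists were chosen with earlier results of these data known. The code was tested on simulated data. Tools were Python 3.11.15, NumPy 2.4.6, pandas 2.3.3, SciPy 1.17.1 and Matplotlib 3.10.9.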

Additional observations from a re-analysis of the deposited data

Results flagged for a closer look

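Among the 4 Oct4 libraries of the lysine lines, Oct4 Sox17EK line B lay apart at Lamc1, with 0.0343% of its list against 0.0426% to 0.0439% in the others. A group of this size was examined 15 times, and chance sets a sample apart in about 1 of 20 groups.

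At Lamb1 the lysine minus glutamate difference had opposite signs for the 2 proteins: -0.0166 percentage points for Sox2 less Sox2KE and 0.0080 for Sox17EK less Sox17, which had no peak there, a difference of -0.0246 that was not tested. At Lamc1 the corresponding values were 0.0181 and -0.0255, a difference of 0.0436 that was not tested either.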

How the results depend on the processing

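The lysine minus glutamate differences, -0.0472 percentage points for Sox and -0.0377 for Oct4, kept their sign in every alternative tried. The Sox unadjusted p rose above 0.05 with scores of 100 or more (-0.0673, exact permutation p = 0.114), without the Lama1 window (-0.0341, p = 0.0571) or the Lamb1 window (-0.0429, p = 0.114), without the 2 Sox17 libraries (-0.0295, p = 0.133) and on leaving out each library in turn (-0.0581 to -0.0403, each p = 0.0571, the smallest possible with fewer libraries). With the replicate block, which pairs libraries by their letter, the Sox difference was -0.0472 (exact permutation p = 0.0556, the smallest possible) and the Oct4 p was 0.111; nothing in the labels says that the letters pair cultures. The Oct4 range on leaving out each library was -0.0436 to -0.0325. Without the collagen window the differences were -0.0211 for Sox (exact permutation p = 0.0286) and -0.0158 for Oct4 (p = 0.114), and with the strongest 5836 peaks of each list they were -0.0942 (p = 0.0286) and -0.0571 (p = 0.229), so the Oct4 groups overlapped in both settings. Leaving out a window was an alternative chosen after seeing the data.

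Matching by midpoints within 200 bp moved the share of Oct4 F9+RA peaks without an Oct4 F9 peak to 82.5% (57.9% of the list), that of Sox17 F9+RA peaks with an Oct4 F9+RA peak to 33.3% (36.9% of the list) and that with an ES Sox peak to 25.6% (35.0% of the list). With scores of 100 or more the last 2 became 71.1% and 57.9%, with 80.9% and 69.1% over the list, and with the strongest 39768 peaks of each F9 list the Sox17 with Oct4 share was 39.3% (42.3% of the list). Among the strongest 5836 peaks of each list the windows held 177 peaks in place of 968. The causes were not tested. Short lists limit the Sox17 ES values most.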
